A study of Mus musculus with 6 samples.

Results

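The transcripts described here are those of the translation initiation and elongation factors, the proteins that bring ribosomes to mRNA and drive the synthesis of the protein chain. Members were all non-control probes of the array whose gene name starts with Eif1 to Eif6, Eef1 or Eef2, without Eif2ak2, and each name was represented by its probe with the highest mean signal over the 6 arrays. This gave 58 names with 135 probes, of 27962 names and 41174 probes on the array. The name pattern also took in Eif2c1, Eif2c2, Eif2c3 and Eif2c4, which RefSeq now lists as Ago1, Ago2, Ago3 and Ago4, Argonaute proteins of RNA silencing and not initiation factors. Their values are given apart from the rest. Further factors that now carry such names stood on the array under others (for example Itgb4bp for Eif6, Ga17 for Eif3m and Wbscr1 for Eif4h), so they are outside the rule. Some of them appear once at the end.

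RNA came from primary mouse embryonic fibroblasts, cells grown directly out of mouse embryos. They were measured untreated at 0 h, after 2 h in 1 mM hydrogen peroxide (H2O2) and after 4 h in 1 mM H2O2, with 2 arrays in each of the 3 groups. The labels call the 2 arrays of a time point independent experiments without saying what was repeated. Genotype, strain, passage and embryos are not given in the sources used here. The p-values therefore measure the spread between these samples, which may be technical. Cells in all groups grew in DMEM with 10% serum, and no untreated culture was taken at 2 h or 4 h, so the effect of H2O2 and those of the hours in culture or of handling the dishes cannot be told apart.

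As background, initiation begins when eIF2, carrying GTP and the initiator tRNA, joins the small ribosomal subunit together with eIF1, eIF1A, eIF3 and eIF5. The eIF4 factors bind the cap of the mRNA and unwind its leader, and the elongation factors eEF1 and eEF2 then deliver tRNAs and move the ribosome along. Cells under stress slow translation at known points: the kinases PERK (Eif2ak3), GCN2 (Eif2ak4) and HRI (Eif2ak1) phosphorylate eIF2 and block its recycling by eIF2B, the 4E-binding proteins sequester eIF4E, and eEF2 kinase (Eef2k) inactivates eEF2. These switches act on proteins, and the arrays report only the amounts of the transcripts.

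Signal is given as a level, the log2 processed signal less the 75th percentile of its array, and changes are differences of levels. Between 57.3% and 68.0% of the non-control spots of an array lay well above background, and no spot was saturated. Precision is limited by having 2 arrays a group. The 75th percentile itself was 826 and 883 in untreated cells, 675 and 677 at 2 h, and 674 and 754 at 4 h, so the scaling bears on every small change. Each slide held 1 array of each time. A given time sat at one position on the slides, and the effects of position and time cannot be told apart. All 10 fibroblast markers were well above background on all 6 arrays. At 2 h 5 of the 10 rose and 1 fell, beside 23.7% and 15.3% of all names. At 4 h 4 rose and 1 fell, beside 24.6% and 18.4%. The marker that fell was Pdgfra, at -1.08 and -0.70. Markers of other cell types also moved: the summed level of the 8 endothelial markers was -0.85 and -0.71 in untreated cells, 0.25 and 0.16 at 2 h, and 0.07 and 0.09 at 4 h, with 1 of the 8 below background on every array, and 5 of 7 tested rose at 2 h. Of the 8, Kdr, Tek, Vwf and Emcn were well above background on all 6 arrays. Robo4 was so on 4 arrays, Cldn5 on 3, Pecam1 on 2 and Cdh5 on 0. The sum of the 5 macrophage and blood markers was 0.77 and 0.75 in untreated cells, 1.13 and 1.05 at 2 h, and 1.04 and 1.07 at 4 h. Of these, Cd68, Csf1r and Itgam rose at both times. Ptprc (-0.06 and -0.07) and Emr1 (0.06 and -0.04) did not pass. All 3 tested epithelial markers rose at both times. Of the tested muscle, neural and erythroid markers 1 of 3, 0 of 2 and 0 of 2 rose at each time. The part of other cell types in the changes below was not tested, and in such bulk samples fewer cells of a type and less RNA per cell cannot be told apart.

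Of the 58 names, 57 were tested and 56 of these were well above background on all 6 arrays. A name was tested when both arrays of at least 1 group lay well above background, and it rose or fell when limma's p, adjusted over all 17334 tested names with the Benjamini-Hochberg method, was under 0.05. At 2 h 17 members rose, 5 fell and 35 did not pass, where over all tested names 23.7% rose and 15.3% fell. At 4 h 24 members rose, 4 fell and 29 did not pass, where over all names 24.6% rose and 18.4% fell. Between 2 h and 4 h 4 members rose and 1 fell, where over all names 13.4% rose and 16.4% fell. The median member changed by 0.22 at 2 h, 0.21 at 4 h and -0.01 between them, beside 0.12, 0.07 and -0.08 for all names. The changes of individual members were small, from -0.94 to 0.56 at 2 h and from -0.54 to 0.56 at 4 h. Leaving out 1 array left 2 or 5 rises at 2 h without untreated replicate 1 or 2, 4 or 5 without replicate 1 or 2 at 2 h, and 15 or 16 without replicate 1 or 2 at 4 h. At 4 h it left 4 or 7 rises without untreated replicate 1 or 2, 13 or 14 without either array at 2 h, and 8 or 15 without replicate 1 or 2 at 4 h. The shares of all names that rose at 2 h and at 4 h also dropped in each fit that left out 1 array. With replicate number, which is also the slide, as a block, 29 members rose at 2 h, beside 33.5% of all names, and 32 at 4 h, beside 31.0%. Between 2 h and 4 h 2 members then fell, beside 23.2% of all names.

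**Figure D1:**
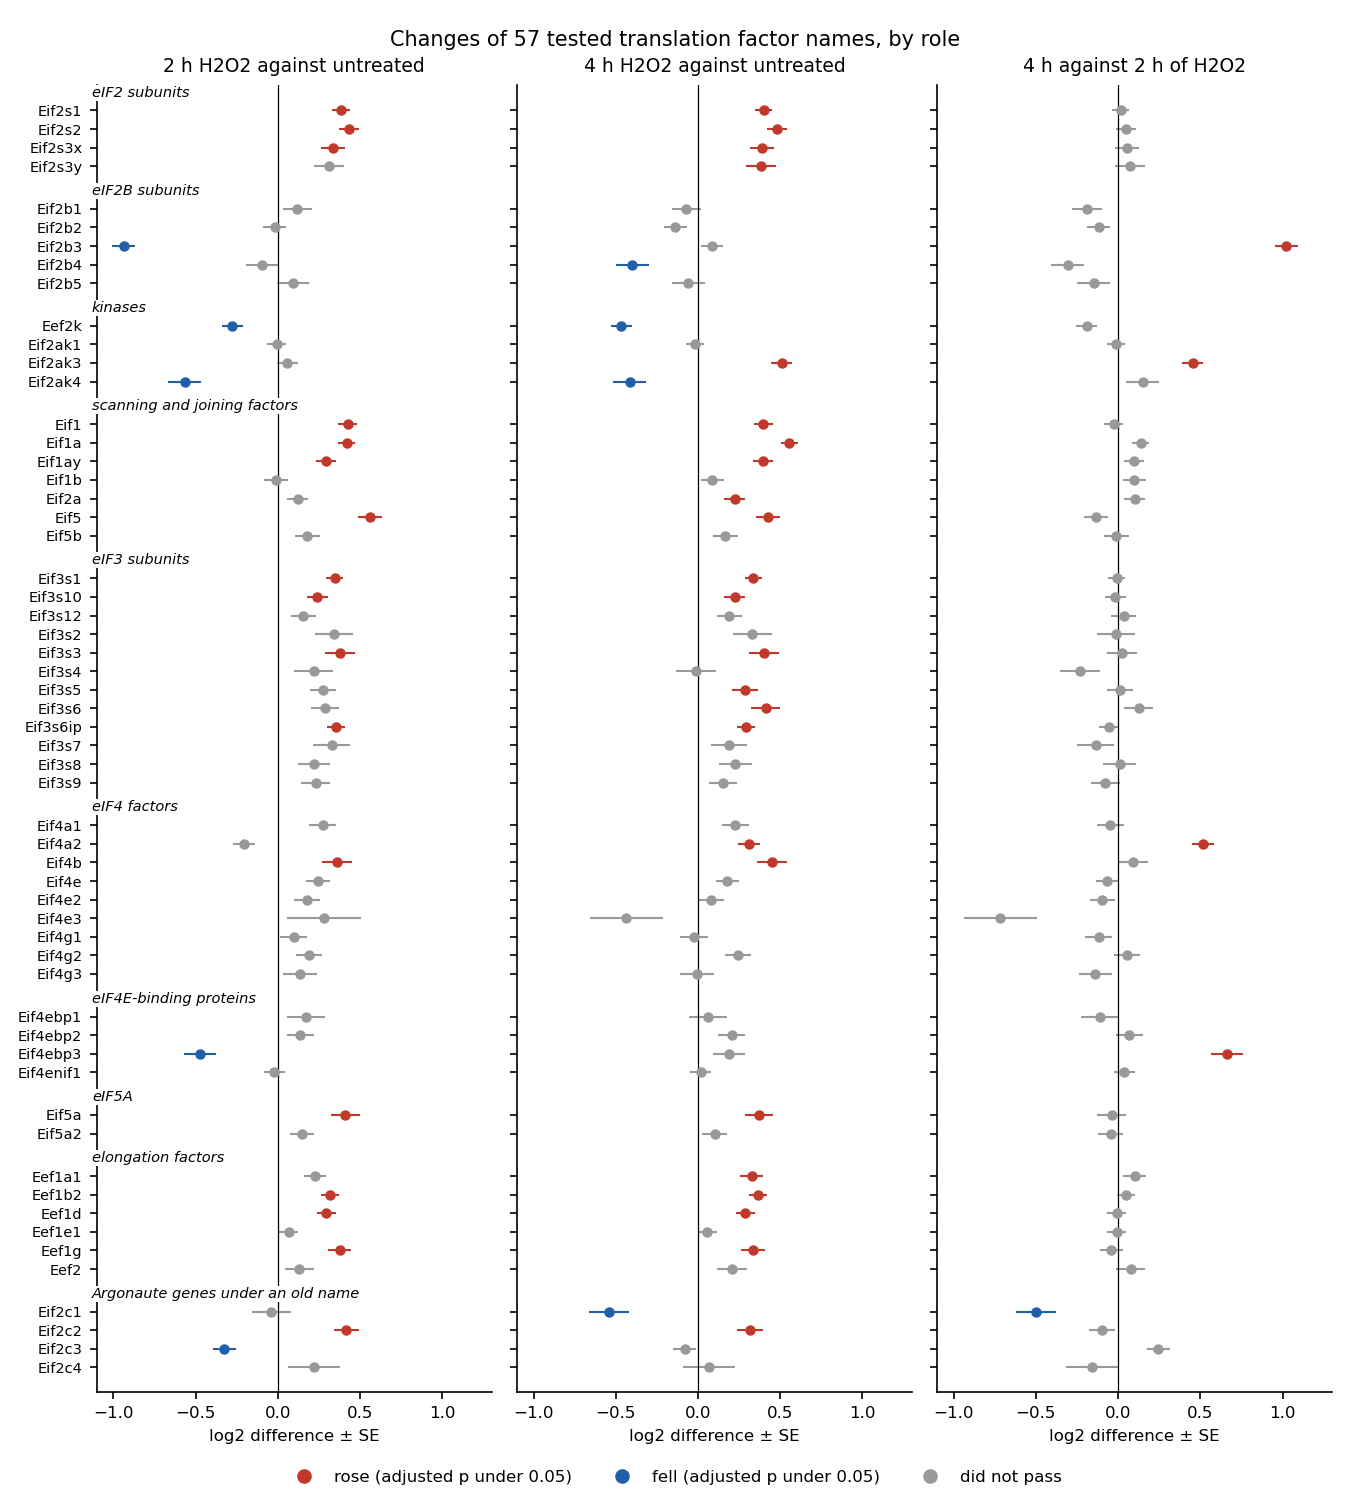
Log2 difference with its standard error (horizontal axis, n = 2 arrays per group) for the 57 tested members, grouped by role, at 2 h against untreated, at 4 h against untreated and at 4 h against 2 h. Red points rose, blue points fell and grey points did not pass an adjusted p of 0.05; at 2 h 17 rose and 5 fell.

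The rises have to be read against the brightness of the probes. Among the 1304 tested names with a mean level over 4, 49.7% rose at 2 h, and 12 of the 24 members in that class did so. At 4 h the share was 42.6% of all such names, and 14 of 24 members rose. In the class from 2 to 4, 5 of 19 members rose at 2 h, beside 24.0% of all names, and 7 of 19 at 4 h, beside 23.9%. In the class from 0 to 2, 0 of 7 members rose at 2 h, beside 15.5% of all names, and 3 of 7 at 4 h, beside 19.98%. None of the 7 members with a level under 0 rose at either time, beside 23.4% of all such names at 2 h and 24.1% at 4 h.

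**Figure D2:**
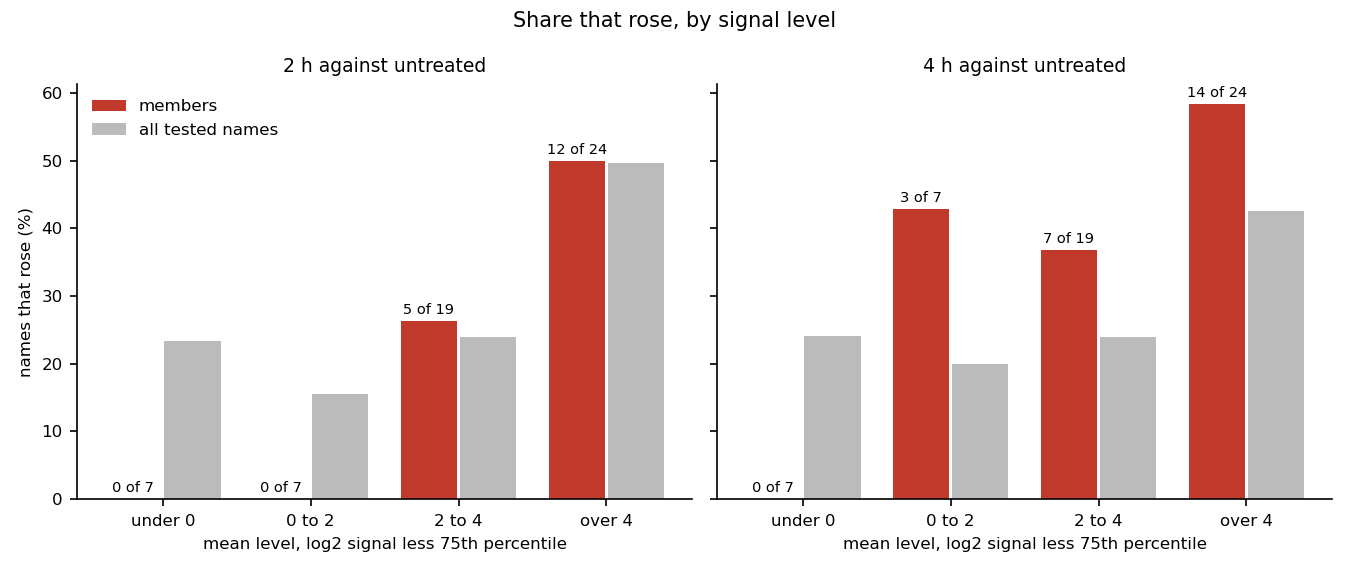
Share of names that rose (vertical axis, percent) in 4 classes of mean level (horizontal axis, log2 signal less the 75th percentile), for members (red, with counts) and all tested names (grey), at 2 h and 4 h against untreated. At 2 h 12 of 24 members with a level over 4 rose, beside 49.7% of all names in that class.

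They also depended on the scaling. With each array centred on its median 1 member rose at 2 h and 6 at 4 h, with quantile normalization 3 and 7, and with no scaling or with scaling to the spike-in controls 0 at either time (0 members at an unadjusted p under 0.05 in limma at 2 h under either, and 2 and 0 at 4 h). Rises over all names also became fewer: 10.7% and 13.2% with median centring, and 15.0% and 18.7% with quantile normalization. With no scaling 8.90% and 10.2% of all names rose, and with spike-in scaling 8.15% and 9.09%. Under those last 2 settings 14 and 8 members fell at 2 h, where 33.1% and 28.6% of all names fell, and 12 and 5 at 4 h, where 31.7% and 25.1% did. The median of all names at 2 h moved to -0.22 with no scaling and to -0.25 with spike-in scaling. Of the 17 members that rose at 2 h none passed under all 4 other scalings, and 9 stayed above 0 in all 4; of the 24 that rose at 4 h none passed in all 4 and 21 stayed above 0. All 5 falls at 2 h and all 4 at 4 h passed under each of these 4 scalings. So did all 4 rises between 2 h and 4 h. Each of the 4 moved values in the direction of these calls. The median of all names went from 0.12 at 2 h to between 0.0008 and -0.25, and from 0.07 at 4 h to between -0.02 and -0.19. Between the times it went from -0.08 up to between -0.04 and 0.04. The scalings therefore cannot tell whether these calls are firmer than the rises over untreated cells. With a normexp background correction in place of the processed signal none of the members' calls passed, although every one kept its direction. Over all names 4.69% then rose and 4.26% fell at 2 h, and 8.68% and 4.87% at 4 h. In that setting limma gave 8 members higher and 2 lower at 2 h at an unadjusted p under 0.05, and 5 higher and 3 lower at 4 h.

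**Figure D3:**
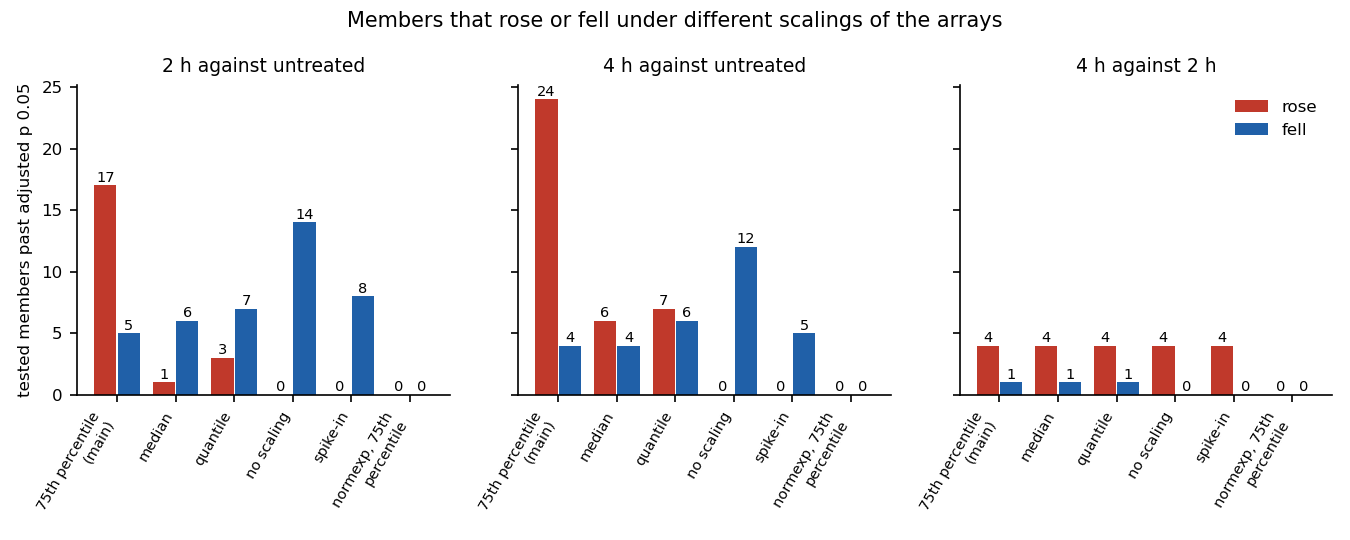
Number of tested members (vertical axis) that rose (red) or fell (blue) past an adjusted p of 0.05 under 6 ways of scaling the arrays (horizontal axis), for the 3 comparisons. Rises at 2 h range from 17 with the 75th percentile, beside 23.7% of all names, to 0 with no scaling, beside 8.90%. At 4 h over 2 h 4 members rose under each scaling except normexp.

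Promoter sequences are shown for Eif4a2 with Eif4a1 and for Eef2k with Eef2, 2 of the pairs of related roles whose changes on the same arrays differed at 2 h. They are RefSeq windows of build GRCm38.p6 from 160 bases before to 20 bases after the gene start, 5′ to 3′, and Eef2k is shown by the first of its 3 starts in that table. Capitals mark TGACG, the core of the cyclic AMP and ATF/CREB response element, and CACGTG, the E-box bound by Myc and TFE3 proteins, on either strand, so CGTCA is the first motif read backwards.
Eif4a2 (chr16:23107308-23107487, plus strand): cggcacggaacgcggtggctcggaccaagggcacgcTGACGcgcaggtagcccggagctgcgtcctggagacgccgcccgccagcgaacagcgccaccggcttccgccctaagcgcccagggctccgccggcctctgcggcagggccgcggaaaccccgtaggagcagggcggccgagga
Eif4a1 (chr11:69672404-69672583, minus strand): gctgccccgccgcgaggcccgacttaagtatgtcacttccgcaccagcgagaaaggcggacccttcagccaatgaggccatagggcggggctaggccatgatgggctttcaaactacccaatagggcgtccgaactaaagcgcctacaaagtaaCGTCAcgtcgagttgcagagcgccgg
Eef2k (chr7:120842671-120842850, plus strand): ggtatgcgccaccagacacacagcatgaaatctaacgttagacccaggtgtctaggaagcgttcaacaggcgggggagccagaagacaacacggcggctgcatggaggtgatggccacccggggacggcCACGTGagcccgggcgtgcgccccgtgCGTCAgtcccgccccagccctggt
Eef2 (chr10:81176471-81176650, plus strand): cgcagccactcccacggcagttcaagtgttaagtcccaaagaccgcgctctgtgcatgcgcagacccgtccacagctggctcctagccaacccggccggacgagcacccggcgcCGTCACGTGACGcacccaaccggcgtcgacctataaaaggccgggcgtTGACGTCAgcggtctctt
Both members of each pair hold TGACG in this window, and Eef2k and Eef2 also hold CACGTG. Over the full windows of 250 bases before and 50 after the start, available for 46 members, 20 members (43.5%) held TGACG, beside 21.0% of 27025 promoters of the same length, and 9 (19.6%) held CACGTG, beside 7.24%. The full element TGACGTCA, which contains TGACG, was in 1 member, Eef2 (2.17%, beside 1.88%), and TGATGNAA, the CHOP and ATF4 composite element, in 1, Eif2s3x (2.17%, beside 4.06%). TGACNNNGC, the core of the antioxidant response element, which can overlap TGACG, was in 9 (19.6%, beside 12.5%), and GTAAACA, a FoxO site, in 1 (2.17%, beside 3.55%). A match describes letters only.

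The kinases moved in different directions. Eef2k, the kinase that switches off eEF2, had levels of 0.96 and 1.02 in untreated cells, 0.75 and 0.67 at 2 h, and 0.55 and 0.49 at 4 h. Neither treated group overlapped the untreated arrays, and both arrays at 4 h lay below both at 2 h. Eef2k fell by 0.28 ± 0.06 at 2 h (SE, adjusted p = 0.0283) and by 0.47 ± 0.06 at 4 h (adjusted p = 0.00616), to 0.723 of the untreated signal. The fall at 4 h passed in each of the 6 fits that left out 1 array, with an adjusted p of at most 0.0437, and the fall at 2 h passed in none of them. A second Eef2k probe above background on all arrays, directed at a cDNA clone, changed by -0.36 and -0.71 (adjusted p over probes = 0.0494 and 0.00748). Its substrate Eef2 did not pass at either time (0.13 ± 0.09 and 0.21 ± 0.09), with 6.33 and 6.22 in untreated cells, 6.48 and 6.33 at 2 h, and 6.54 and 6.42 at 4 h, so that the 2 h arrays overlapped the untreated ones. The change of Eef2k less that of Eef2 on the same arrays, which a shift of a whole array cannot alter, was -0.41 at 2 h and -0.67 at 4 h, with -0.62 and -0.73 at 4 h on the 2 slides. The 2 probes differ in brightness, and changes went with brightness. The median of all names with a level over 4 was 0.28 at 2 h and 0.24 at 4 h. For levels from 0 to 2 it was 0.05 and -0.01. The part of brightness in this and the other pair differences below was not tested.

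Eif2ak4 encodes GCN2, the eIF2 kinase activated by uncharged tRNA. Its levels were 0.61 and 0.48 in untreated cells, 0.10 and -0.14 at 2 h, and 0.11 and 0.15 at 4 h, so the treated arrays all lay below the untreated ones, and the 4 h arrays lay just above those at 2 h. It fell by 0.57 ± 0.10 at 2 h (adjusted p = 0.0141) and by 0.42 ± 0.10 at 4 h (adjusted p = 0.0300). A second probe, also matched to the RefSeq mRNA and above background on all arrays but dimmer, did not pass: it changed by -0.11 at 2 h and 0.37 at 4 h (adjusted p over probes = 0.491 and 0.0556). With the mean of its probes, Eif2ak4 changed by -0.35 at 2 h and -0.06 at 4 h, neither past the test. The fall at 2 h was lost without replicate 2 at 2 h (adjusted p = 0.0515) or untreated replicate 1 (0.0820), and that at 4 h without either array at 4 h or either untreated array.

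Eif2ak3 encodes PERK, the eIF2 kinase of the endoplasmic reticulum. Its levels of 0.55 and 0.44 in untreated cells and 0.58 and 0.53 at 2 h overlapped, and both arrays at 4 h stood above all others with 1.01 and 1.00. Eif2ak3 rose by 0.51 ± 0.06 at 4 h over untreated cells (1.42-fold, adjusted p = 0.00486) and by 0.45 ± 0.06 at 4 h over 2 h (adjusted p = 0.00973). At 2 h it changed by 0.06 ± 0.06 (adjusted p = 0.504), a value that turned to -0.28 with no scaling, -0.31 with spike-in scaling and -0.14 with median centring. The rise over untreated cells passed without any 1 array, and the difference between times was lost without either array at 2 h or replicate 1 at 4 h (adjusted p up to 0.0634); under no scaling and spike-in scaling the rise over untreated cells was 0.25 and did not pass. It has a single probe on the array. On the same arrays Eif2ak3 changed by 0.93 more than Eif2ak4 at 4 h, with 0.96 on slide 1 and 0.89 on slide 2. This difference rests on the brightest Eif2ak4 probe. The second RefSeq probe of Eif2ak4 changed by 0.37 at 4 h, not past the test, which is close to the rise of Eif2ak3.

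Eif2ak1 encodes HRI, a kinase controlled by heme in red cells and by mitochondrial stress. Its brightest probe was flat, with -0.41 and -0.41 in untreated cells, -0.43 and -0.41 at 2 h, and -0.40 and -0.47 at 4 h, and changes of -0.01 and -0.02. The other probes above background on all arrays did not pass at 2 h (-0.09 and 0.01) and fell by 0.75 and 0.57 at 4 h (adjusted p over probes = 0.00646 and 0.0357). The first of these is directed at a cDNA clone and the second at the RefSeq mRNA, so the result for HRI at 4 h depends on the probe.

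Of the 4 eIF2 subunit transcripts 3 rose at 2 h, beside 23.7% of all names, and 4 at 4 h, beside 24.6%. Eif2s1, the alpha subunit that carries the regulated phosphorylation site, had 3.66 and 3.68 in untreated cells, 4.04 and 4.07 at 2 h, and 4.05 and 4.09 at 4 h. It rose by 0.38 ± 0.05 at 2 h (adjusted p = 0.00713) and 0.40 ± 0.05 at 4 h (1.32-fold, adjusted p = 0.00594), and its second probe rose by 0.35 and 0.41. Eif2s2, the beta subunit, had 5.52 and 5.52 in untreated cells, 5.91 and 5.99 at 2 h, and 5.97 and 6.04 at 4 h, and rose by 0.43 ± 0.06 and 0.48 ± 0.06. The gamma subunit has a copy on the X and one on the Y chromosome: Eif2s3x, with 2.95 and 2.89 in untreated cells, 3.27 and 3.24 at 2 h, and 3.38 and 3.24 at 4 h, rose by 0.33 ± 0.07 and 0.39 ± 0.07. Eif2s3y, with 0.97 and 1.17 in untreated cells, 1.34 and 1.43 at 2 h, and 1.42 and 1.49 at 4 h, rose at 4 h (0.38 ± 0.09, adjusted p = 0.0289) with 0.31 ± 0.09 at 2 h (adjusted p = 0.0548, and 0.0214 with the slide block). The changes of Eif2s3x and Eif2s3y on the same arrays differed by 0.02 at 2 h and 0.01 at 4 h. Under spike-in scaling Eif2s1 changed by 0.01 at 2 h and 0.14 at 4 h, and Eif2s3x turned to -0.038 at 2 h (-0.0039 with no scaling) and Eif2s3y to -0.06. All 4 subunits stayed above 0 at 4 h in all scalings run.

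The subunits of eIF2B, the exchange factor that reloads eIF2 with GTP, are 5 members. None of the 5 rose at 2 h, beside 23.7% of all names, or at 4 h, beside 24.6%, and 0 did so at an unadjusted p under 0.05 in limma. Eif2b4, the delta subunit, had 2.92 and 2.81 in untreated cells, 2.84 and 2.70 at 2 h, and 2.56 and 2.37 at 4 h. It fell by 0.40 ± 0.10 at 4 h (adjusted p = 0.0318), and its other probe fell by 0.47 (adjusted p over probes = 0.0221), while at 2 h the arrays overlapped. That call was lost in 5 of the 6 fits that left out an array, with changes between -0.50 and -0.30, and was kept only without replicate 1 at 4 h. Eif2b5, the catalytic epsilon subunit, had 2.22 and 2.10 in untreated cells, 2.34 and 2.17 at 2 h, and 2.18 and 2.03 at 4 h, with overlap and changes of 0.09 and -0.06, and Eif2b1 and Eif2b2 did not pass either. On the same arrays Eif2s1 changed by 0.48 more than Eif2b4 at 2 h and by 0.80 more at 4 h. Eif2b3, the gamma subunit, has 1 probe, directed at a cDNA clone, and it was close to background, with -4.98 and -4.83 in untreated cells, -5.85 and -5.84 at 2 h, and -4.82 and -4.82 at 4 h. It was well above background on both untreated arrays, on 1 array at 4 h and on none at 2 h, so the fall at 2 h is given as at least 1.44-fold (adjusted p = 0.00121) and the difference of 4 h over 2 h as at least 1.53-fold higher (adjusted p = 0.00231). With the normexp correction the change at 2 h was -0.04.

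Among the factors that scan for the start codon and join the subunits, Eif5 had the largest rise of any member at 2 h. Eif5, which stimulates GTP hydrolysis by eIF2 at the start codon, had 4.32 and 4.20 in untreated cells, 4.77 and 4.87 at 2 h, and 4.69 and 4.68 at 4 h. It rose by 0.56 ± 0.07 at 2 h (1.47-fold, adjusted p = 0.00596) and 0.42 ± 0.07 at 4 h (adjusted p = 0.0118), and a second probe rose by 0.37 and 0.31. At 2 h the rise passed without any 1 array and under median centring and quantile normalization, and was 0.22 and 0.19, short of the test, with no scaling and spike-in scaling. The rise at 4 h was lost without either array at 4 h or untreated replicate 2. Another probe, directed at a cDNA clone, gave -0.24 at 2 h and 0.37 at 4 h.

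Eif1, which guards start codon selection, rose by 0.42 ± 0.06 and 0.40 ± 0.06, with 5.97 and 5.98 in untreated cells, 6.37 and 6.43 at 2 h, and 6.40 and 6.34 at 4 h. Its paralog Eif1b did not pass (-0.01 ± 0.07 and 0.09 ± 0.07), and Eif1 changed by 0.44 more than Eif1b at 2 h and 0.31 more at 4 h. Eif1a, which encodes a form of eIF1A, had 3.62 and 3.63 in untreated cells, 4.05 and 4.04 at 2 h, and 4.18 and 4.19 at 4 h. It rose by 0.42 ± 0.05 at 2 h and by 0.56 ± 0.05 at 4 h, the largest rise at 4 h (1.47-fold, adjusted p = 0.00220). Its second RefSeq probe did not pass (-0.05 at 4 h), and a probe for a cDNA clone changed by 0.54 and 0.57 with a wide spread (adjusted p over probes = 0.244 and 0.220), so the call rests on 1 probe. The probe listed as Eif1ay is by its accession that of Eif1ax on the X chromosome, another eIF1A gene; it rose by 0.30 ± 0.06 and 0.39 ± 0.06, and its second probe by 0.22 and 0.32. Eif2a, an alternative initiator tRNA carrier, rose at 4 h by 0.22 ± 0.06 (adjusted p = 0.0452) and turned to -0.04 with no scaling and -0.03 with spike-in scaling. Eif5b, the GTPase of subunit joining, did not pass (0.18 ± 0.08 and 0.17 ± 0.08, adjusted p = 0.126 and 0.144, and 0.0354 and 0.0405 with the slide block).

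The 12 eIF3 subunits, which form the scaffold of the initiation complex, showed small changes. At 2 h they ranged from 0.16 to 0.38, with a median of 0.28, beside 0.12 for all names, and 4 of 12 rose, beside 23.7% of all names. At 4 h 6 of 12 rose, beside 24.6% of all names. The range was -0.01 to 0.41, with a median of 0.26, beside 0.07 for all names. None fell, and none was lower at an unadjusted p under 0.05 in limma. Most of the 12 had a mean level over 4. Among all names that bright, 49.7% rose at 2 h, with a median of 0.28, and 42.6% at 4 h, with a median of 0.24. The array lists the eIF3 subunits by old names. Eif3s3 (now Eif3h) rose by 0.38 ± 0.09 and 0.40 ± 0.09, with 6.09 and 5.95 in untreated cells, 6.45 and 6.35 at 2 h, and 6.50 and 6.35 at 4 h. Eif3s6 (now Eif3e), with 3.51 and 3.63 in untreated cells, 3.79 and 3.92 at 2 h, and 3.92 and 4.03 at 4 h, rose at 4 h by 0.41 ± 0.09 (adjusted p = 0.0201), with 0.29 ± 0.09 at 2 h. Eif3s1 (Eif3j1), Eif3s10 (Eif3a) and Eif3s6ip (Eif3l) rose at both times by 0.22 to 0.35, and Eif3s5 (Eif3f) rose at 4 h. With the slide block 10 of 12 rose at 2 h, beside 33.5% of all names. Under spike-in scaling the values at 2 h turned to -0.03 for Eif3s1, -0.13 for Eif3s10 and -0.02 for Eif3s6ip, and Eif3s3 stood at 0.01.

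Of the eIF4 factors, the paired helicases differed. Eif4a1 and Eif4a2 encode 2 close forms of eIF4A, the helicase that unwinds the leader of the mRNA. Eif4a2 had 3.08 and 3.18 in untreated cells, 2.91 and 2.93 at 2 h, and 3.39 and 3.48 at 4 h: the 2 h arrays lay below the untreated ones and the 4 h arrays above them. Its change at 2 h was -0.21 ± 0.07 (adjusted p = 0.0677, and 0.0300 with the slide block), short of the test here but past it in the 4 other scalings (-0.36 to -0.58). It rose by 0.31 ± 0.07 at 4 h (adjusted p = 0.0222) and by 0.51 ± 0.07 at 4 h over 2 h (1.43-fold, adjusted p = 0.00798). The rise at 4 h over untreated cells was lost in each of the 6 fits without 1 array and was 0.05 under no scaling and spike-in scaling, whereas the difference between times passed in 5 of 6 and in all 4 other scalings. Its other probe changed by 0.01 and 0.19, with 0.17 between times (adjusted p over probes = 0.0852).

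Eif4a1 had 5.56 and 5.55 in untreated cells, 5.78 and 5.89 at 2 h, and 5.87 and 5.70 at 4 h, and did not pass (0.27 ± 0.08 and 0.23 ± 0.08, adjusted p = 0.0577 and 0.0866). On the same arrays the change of Eif4a2 less that of Eif4a1 was -0.48 at 2 h (-0.38 and -0.58 on the 2 slides), 0.08 at 4 h with overlap, and 0.56 between the times. Eif4b, which stimulates eIF4A, had 3.17 and 3.08 in untreated cells, 3.55 and 3.41 at 2 h, and 3.65 and 3.49 at 4 h. It rose by 0.36 ± 0.09 at 2 h and 0.45 ± 0.09 at 4 h (-0.011 and 0.19 under spike-in scaling), and its 2 other probes were 0.20 and 0.37 at 2 h and 0.28 and 0.48 at 4 h. The cap-binding protein Eif4e had 2.48 and 2.53 in untreated cells, 2.68 and 2.81 at 2 h, and 2.65 and 2.71 at 4 h, with no overlap, and did not pass (0.24 ± 0.07 and 0.18 ± 0.07). Nor did the scaffold Eif4g1, with 4.62 and 4.53 in untreated cells, 4.72 and 4.62 at 2 h, and 4.62 and 4.47 at 4 h (0.10 ± 0.08 and -0.02 ± 0.08). Eif4g2, a relative that works in cap-independent initiation, had 4.53 and 4.61 in untreated cells, 4.71 and 4.81 at 2 h, and 4.74 and 4.88 at 4 h and did not pass either (0.19 ± 0.08 and 0.24 ± 0.08). Eif4g1 stood at -0.24 at 2 h with no scaling.

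The 4E-binding proteins keep eIF4E from the scaffold, and only Eif4ebp3 passed a test among the 4 names grouped there. Eif4ebp3 had 1.20 and 1.02 in untreated cells, 0.69 and 0.59 at 2 h, and 1.37 and 1.23 at 4 h. The 2 h arrays stood below all others. It fell by 0.47 ± 0.10 at 2 h (0.721 of the untreated signal, adjusted p = 0.0210) and rose by 0.66 ± 0.10 at 4 h over 2 h (1.58-fold, adjusted p = 0.0110), while at 4 h it changed by 0.19 ± 0.10 against untreated cells (adjusted p = 0.189, and 0.0332 with the slide block). Its second probe showed the same course, with -0.54 at 2 h, 0.06 at 4 h and 0.61 between the times (adjusted p over probes = 0.00434, 0.452 and 0.00514). Leaving out 1 array ended the call in 3 of 6 fits for each of these comparisons, without a change of direction. Eif4ebp1 had 5.88 and 5.69 in untreated cells, 5.97 and 5.94 at 2 h, and 5.97 and 5.72 at 4 h and did not pass. Eif4ebp2 had 2.26 and 2.19 in untreated cells, 2.45 and 2.27 at 2 h, and 2.40 and 2.46 at 4 h and did not pass either. The change of Eif4ebp3 less that of Eif4ebp2 was -0.61 at 2 h and -0.02 at 4 h.

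**Figure D4:**
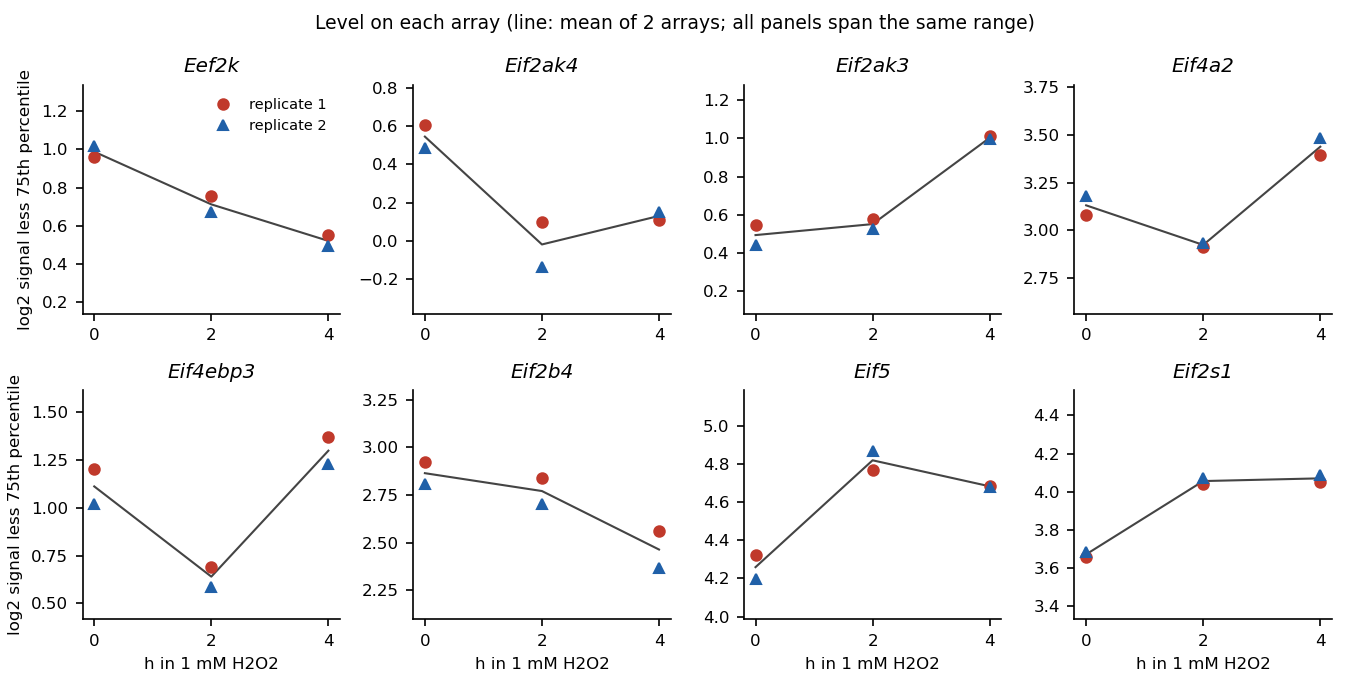
Level on each array (vertical axis, log2 signal less the 75th percentile of the array) of 8 members against hours in 1 mM H2O2 (horizontal axis, 0 h is untreated), with circles for replicate 1, triangles for replicate 2 and lines for means of 2. Eef2k steps down at each time, Eif2ak3 is high only at 4 h (1.01 and 1.00), and Eif4a2 and Eif4ebp3 are lowest at 2 h.

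Of the 6 tested elongation factors 3 rose at 2 h, beside 23.7% of all names, 4 rose at 4 h, beside 24.6%, and 0 fell. All of these factors but Eef1e1 had a mean level over 4, a class in which 49.7% of all names rose at 2 h and 42.6% at 4 h. All 6 values were above 0 at both times, but with no scaling 5 of them were below 0 at 2 h: Eef1a1 (-0.11), Eef1b2 (-0.02), Eef1d (-0.04), Eef1e1 (-0.27) and Eef2 (-0.21). Eef1b2 and Eef1g, subunits of the exchange factor that reloads eEF1A, rose by 0.32 ± 0.05 and 0.38 ± 0.07 at 2 h and by 0.36 ± 0.05 and 0.33 ± 0.07 at 4 h. Eef1a1, the main tRNA carrier, had 6.90 and 6.82 in untreated cells, 7.10 and 7.07 at 2 h, and 7.24 and 7.13 at 4 h, and rose at 4 h by 0.33 ± 0.07 (adjusted p = 0.0211), with 0.23 ± 0.07 at 2 h. Eef1a2, the form of muscle and neurons, was well above background on 2 of 6 arrays, with -5.09 and -7.40 in untreated cells, -3.00 and -7.28 at 2 h, and -5.51 and -5.94 at 4 h, and was not tested. Eif5a, which helps ribosomes past stalling sequences, had 5.63 and 5.49 in untreated cells, 5.995 and 5.938 at 2 h, and 6.004 and 5.851 at 4 h. It rose by 0.41 ± 0.09 and 0.37 ± 0.09, and its second probe by 0.31 and 0.39; its paralog Eif5a2 did not pass (0.15 ± 0.07 and 0.10 ± 0.07). With spike-in scaling Eef1b2 stood at -0.05 and Eif5a at 0.04 at 2 h.

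Several members have more than 1 probe. There were 77 other probes for 41 of the 58 names, 65 of them above background on all 6 arrays. Of the 21 that belong to members that rose at 2 h, 11 also rose and 19 were above 0; of the 25 at 4 h, 13 rose and 24 were above 0, beside 21.2% and 23.0% of all 25875 tested probes. None of these passed in the opposite direction. Of the 6 that belong to members that fell at 2 h, 2 also fell and 5 were below 0, and of the 4 at 4 h, 2 fell and 3 were below 0, beside falls of 14.5% and 17.6% of all tested probes. Of the 38 that belong to members that did not pass at 2 h, 8 rose and 2 fell, and of the 36 at 4 h, 7 rose and 3 fell. For Eef1d, Eif4e2 and Eif4enif1, chosen here after their values were seen, the probes differed in their changes.

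Eef1d encodes another subunit of the eEF1A exchange factor. The brightest probe, listed with 2 RefSeq mRNAs, rose by 0.30 ± 0.06 at 2 h and 0.29 ± 0.06 at 4 h, and a second probe for the same 2 mRNAs rose by 0.55 and 0.53. The remaining probe, listed with only 1 of them, was at -5.12 and -5.66 in untreated cells, where it was not well above background, and at -2.40 and -2.57 at 2 h and -2.34 and -2.23 at 4 h. The signal of that probe rose at least 7.49-fold at 2 h (adjusted p over probes = 0.00108) and at least 8.59-fold at 4 h (0.00103). Its own untreated signals set these bounds, since they lay above the lowest levels called well above background on the same arrays (-5.38 and -5.89).

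Eif4e2 encodes a cap-binding relative of eIF4E that represses translation. Its 2 probes listed with 3 RefSeq mRNAs were nearly flat (0.18 and 0.18 at 2 h, 0.08 and 0.06 at 4 h). The 2 probes listed with only 1 of those mRNAs rose by 0.65 and 1.00 at 2 h (adjusted p over probes = 0.00244 and 0.00188) and by 1.12 and 1.10 at 4 h (0.000766 and 0.00160). The first of them had -1.05 and -1.14 in untreated cells, -0.44 and -0.44 at 2 h, and 0.01 and 0.03 at 4 h, with no overlap between any of the 3 groups.

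Eif4enif1 encodes 4E-T, which carries eIF4E into the nucleus and into P-bodies. Its brightest probe was flat, at -0.02 and 0.02, and a second RefSeq probe rose by 0.77 at 2 h and 0.74 at 4 h (adjusted p over probes = 0.00298 and 0.00326). Another probe is directed at a cDNA clone, and by the coordinates in the files it lies on the same chromosome but reads in the opposite direction to the brightest probe. That probe had -4.28 and -4.53 in untreated cells, -1.91 and -1.90 at 2 h, and -3.53 and -3.60 at 4 h. It rose by 2.50 at 2 h (adjusted p over probes = 0.000348) and 0.84 at 4 h (0.00459), the largest change of any member probe above background on all arrays, and fell by 1.66 at 4 h against 2 h. Whether it reports the gene or a transcript of the other strand was not tested.

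**Figure D5:**
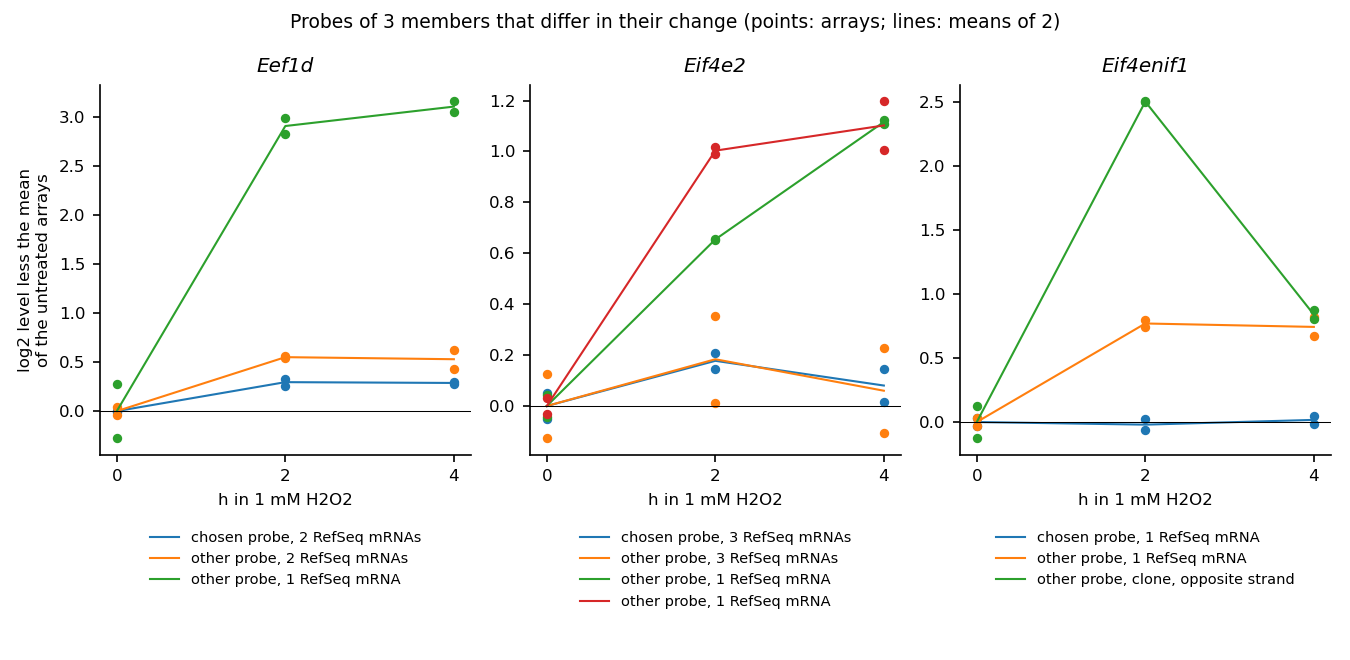
Level of each probe less its mean in untreated cells (vertical axis, log2) against hours in 1 mM H2O2 (horizontal axis) for Eef1d, Eif4e2 and Eif4enif1, with points for arrays and lines for means of 2, for probes above background on at least 4 arrays. The Eef1d probe for 1 RefSeq mRNA was not well above background on either untreated array and stands 2.90 above them at 2 h. The brightest Eif4enif1 probe stays flat (-0.02 at 2 h) while the one on the opposite strand reaches 2.50.

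The Argonaute genes under the old names did not move together. Eif2c2 (Ago2, which cleaves its target mRNAs) had 1.96 and 2.13 in untreated cells, 2.47 and 2.45 at 2 h, and 2.36 and 2.36 at 4 h, and rose by 0.42 ± 0.08 and 0.32 ± 0.08. Eif2c3 (Ago3) had -0.90 and -0.89 in untreated cells, -1.17 and -1.27 at 2 h, and -1.03 and -0.92 at 4 h, and fell by 0.32 ± 0.07 at 2 h. Eif2c1 (Ago1) had -1.57 and -1.45 in untreated cells, -1.51 and -1.59 at 2 h, and -2.20 and -1.90 at 4 h, and fell by 0.54 ± 0.12 at 4 h and by 0.50 ± 0.12 at 4 h against 2 h; both calls of Eif2c1 were lost in 5 of the 6 fits without 1 array. These probes are listed with no RefSeq mRNA, and the RefSeq probe of Eif2c3 changed by 0.26 at 2 h (adjusted p over probes = 0.130). The 2 RefSeq probes of Eif2c2 changed by 0.29 and 0.20 at 2 h, neither past the test. At 4 h they changed by 0.32 and 0.34, and only the dimmer of them passed. Both calls of Eif2c2 were also lost in some of the fits without 1 array. Eif2c4 (Ago4) did not pass by its chosen RefSeq probe (0.22 ± 0.16 and 0.07 ± 0.16). Of its other probes, taken up after their values were seen, 2 above background on all arrays fell by 1.05 and 0.69 at 2 h (adjusted p over probes = 0.00417 and 0.0149). They were at -0.16 and 0.12 at 4 h, not past the test, and are listed with no RefSeq mRNA. Without the 4 Argonaute names the remaining 53 tested members gave 16 rises and 4 falls at 2 h, 23 and 3 at 4 h, and 4 and 0 between the times (3 lower at an unadjusted p under 0.05 in limma).

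Other genes of the translation machinery were counted from lists, to be read beside the 23.7% of all names that rose and the 15.3% that fell at 2 h, and the 24.6% and 18.4% at 4 h. Of 8 release and recycling factors 6 rose and 2 fell at 2 h, and 4 rose and 0 fell at 4 h: Gspt2, a form of the release factor eRF3, fell by 2.18 at 2 h and was at -0.34 at 4 h (adjusted p = 0.118), and Etf1, the release factor eRF1, rose by 0.60 and 0.72. Of 12 poly(A) and cap partners 5 rose and 1 fell at 2 h and 4 rose and 1 fell at 4 h, among them Paip2, an inhibitor of poly(A)-binding protein, at 0.55 and 0.65. Of 19 kinases, phosphatases and regulators of translation factors 6 rose and 7 fell at 2 h, and 4 rose and 7 fell at 4 h. Sesn2, a stress-induced inhibitor of mTORC1, rose by 1.02 and 1.00, and Mlst8, a subunit of mTOR complexes, fell by 0.85 and 0.57. Mtor itself (-0.61 and -0.64) and Rptor (-0.43 and -0.38), named after their values were seen, fell at both times. Genes of this list did not move together, and the following were also named after their values were seen. Rheb rose by 0.38 and 0.43, and Sesn1, a relative of Sesn2, fell by 0.47 and 0.44. Rps6kb1 rose by 0.72 at 2 h and fell by 0.27 at 4 h. Tsc1 fell by 0.46 at 2 h and was at 0.20 at 4 h, not past the test. Of 9 mitochondrial translation factors 0 rose and 3 fell at 2 h and 1 rose and 3 fell at 4 h, with Mtif3, which starts mitochondrial translation, at -1.15 at 2 h, and of 20 cytosolic aminoacyl-tRNA synthetases 4 rose and 0 fell at 2 h and 4 rose and 1 fell at 4 h. Among factors outside the name rule Ga17 (Eif3m) rose by 0.31 at both times, and Itgb4bp (Eif6) did not pass (0.35 ± 0.12 and 0.28 ± 0.12). Wbscr1 (Eif4h) and 2010003J03Rik (Eif1ad) rose at 2 h by 0.29 and 0.27 and did not pass at 4 h (0.18 and 0.09). Ddx48 (Eif4a3) and Lgtn (Eif2d) did not pass at either time.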

How the data were processed

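The 6 one-colour (Cy3) Agilent arrays of mouse embryonic fibroblasts comprised 2 per group. Per the file headers, the authors extracted the deposited fluorescence intensity with Feature Extraction 9.5.3.1. The deposited flags of other kinds (outlier, saturated, well above background) were used as given. The deposited value table equals the processed signal within 5e-04.

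Computed here: log2 of the processed signal less the 75th percentile of 43379 non-control spots per array, without flagged outlier spots (99 to 149 per array), with the spots of a probe averaged and the brightest probe kept per name. One limma 3.58.1 model (R 4.3.3, 3 residual and 1.63 prior degrees of freedom) held all 6 arrays. Benjamini-Hochberg adjustment covered the 17334 tested names of a comparison, or 25875 probes where "adjusted p over probes" is written. For "at least" folds the dim group was given, per array, the higher of the probe's signal and the weakest signal called well above background. The fit was tested on simulated data. Names were matched to RefSeq by accession for 54 of 58 members. Named by rule are the 8 largest rises and falls per time, 23 preset members, Eif6 under its array name, and up to 3 genes per list. Some other members of several roles and some factors outside the name rule were named beyond this. Mtor, Rptor, Rheb, Rps6kb1, Sesn1 and Tsc1 were added after their values were seen. Members and lists were chosen with earlier results of these data known. Alternatives were other scalings, background correction, filters, probe rules, the slide block and leaving out each array. Arrays of the same replicate number shared a slide, and their deviations from group means correlated (r = 0.248, 0.191 and 0.242).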

Additional observations from a re-analysis of the deposited data

Results flagged for a closer look

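The change at 4 h differed from that at 2 h, by the limma test of that difference, for 5 members. The difference of 4 h less 2 h was 0.45 for Eif2ak3, 0.51 for Eif4a2, 0.66 for Eif4ebp3, 1.02 for Eif2b3 and -0.50 for Eif2c1. Eif2ak3 was raised at 4 h and not past the test at 2 h, and Eif4ebp3 was lowered at 2 h and not past the test at 4 h. Eif4a2 and Eif4ebp3 lay below untreated cells at 2 h and above them at 4 h on both slides, although with no scaling the 4 h value of Eif4ebp3 was -0.07. The Eif2b3 value comes from a probe near background and the Eif2c1 value from a probe with no RefSeq mRNA.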

How the results depend on the processing

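Members that rose numbered 17 at 2 h and 24 at 4 h, and became 1 and 6 with median centring, 3 and 7 with quantile normalization, 5 and 9 with no filter on dim names, and 0 and 0 with no scaling, with spike-in scaling and with normexp. The share of all names that rose also dropped, from 23.7% and 24.6%. It was 10.7% and 13.2% with median centring, 15.0% and 18.7% with quantile normalization, and 8.36% and 9.44% with no filter. It was 8.90% and 10.2% with no scaling, 8.15% and 9.09% with spike-in scaling, and 4.69% and 8.68% with normexp. With the replicate block, 29 rose at 2 h, beside 33.5% of all names, and 32 at 4 h, beside 31.0%. Between 2 h and 4 h 2 fell, beside 23.2% of all names. Every call of the fit without the block was kept. Members that fell at 2 h numbered 14 with no scaling, 8 with spike-in scaling, 3 with the mean of a name's probes, 2 with no filter and 0 with normexp, and at 4 h 12 with no scaling, 1 with no filter and 0 with normexp. Of all names 33.1%, 28.6%, 12.7%, 6.12% and 4.26% fell at 2 h in these settings, in that order, and 31.7%, 6.83% and 4.87% at 4 h. The 1 fall between the times (Eif2c1) became 0 with no filter, no scaling, spike-in scaling, normexp and without the Argonaute genes (a setting chosen after seeing the data), and the 4 rises became 0 with normexp. With normexp the unadjusted counts under 0.05 were 3 higher and 2 lower between the times. The member median less that of all names turned to -0.010 at 4 h and -0.029 between the times with no filter, and to -0.065 and -0.14 with normexp. Among single members whose sign turned at 2 h were Eif2ak3 (-0.28), Eif2s3x (-0.0039) and Eif4g1 (-0.24) with no scaling, and Eif2s3x (-0.038) and Eif4b (-0.011) with spike-in scaling. The causes were not tested.

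Leaving out 1 array gave 2 to 16 rises and 1 to 4 falls at 2 h, 4 to 15 rises and 1 to 2 falls at 4 h, and 1 to 4 rises and 0 to 1 falls between the times. Of the calls of named members, those of Eif1a at both times, Eef2k, Eif2ak3 and Eif2s2 at 4 h, Eif5 at 2 h, and Eif2b3 at 2 h and between the times passed without any 1 array, and each other was lost without at least 1. The lowest counts of rises at 2 h (2) and 4 h (4) came without untreated replicate 1, and the lone array left in a group is then assumed to vary like the others. Over all names the shares that rose and that fell were also lower in each fit without 1 array, in all comparisons. With every array kept, the deposited value table gave the same counts as the main fit, and adjusting over every probe gave 17 rises at 2 h and 22 at 4 h. Dim probes such as Eif2b3 limit what can be said below a level of about -5.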
